A study of Mus musculus with 4 samples.

Results

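The genes described here encode the tissue factor pathway of coagulation, its brakes on the cell surface, and the urokinase system that turns plasminogen into plasmin. They are 8 genes chosen by name, F3, F10, Thbd, Procr, Tfpi, Plau, Plaur and Serpinb2, and all 8 were found among 24235 genes. Their RNA was measured in 4 libraries from cultured macrophages, which had been derived with M-CSF from marrow of 7-week-old C57BL/6 mice. The groups were Sema6D-/- with LPS, WT (wild type) with LPS, Sema6D-/- without LPS and WT without LPS, with 1 library in each. LPS, a bacterial cell wall component sensed by macrophages, was used at 100 ng/ml for 4 h. All groups share the M-CSF culture, and neither the deleted stretch of Sema6d nor the number of mice behind each library is given. The treatment text names LPS for every sample, so the groups without LPS rest on "non" in the library titles. With 1 library in each group no difference below has a replicate check, no test was possible, and the intervals cover counting error only.

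Tissue factor, encoded by F3, is the membrane receptor that starts coagulation: it binds factor VIIa, and the complex activates factor X, which then makes thrombin. Thrombomodulin (Thbd) and the endothelial protein C receptor (Procr) turn thrombin towards activating protein C, an anticoagulant, and tissue factor pathway inhibitor (Tfpi) blocks the tissue factor complex and factor Xa. Urokinase (Plau) bound to its receptor (Plaur) makes plasmin, which dissolves fibrin and helps cells cross matrix, and Serpinb2 encodes an inhibitor of urokinase. Monocytes and macrophages are a known source of tissue factor, urokinase and Serpinb2 in inflammation.

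Promoter sequences are shown for the 4 genes that had at least 2-fold higher levels with LPS in both genotypes and an AP-1 match before their start. They are the 250 bases before the annotated start in RefSeq on GRCm38.p6, given 5′ to 3′ on the gene's own strand, which is the plus strand for all 4. Capitals mark matches on either strand to AP-1 (TGANTCA), the Sp1 GC box (GGGCGG) or a TATA box (TATAAA).
F3, chr3:121723287-121723536: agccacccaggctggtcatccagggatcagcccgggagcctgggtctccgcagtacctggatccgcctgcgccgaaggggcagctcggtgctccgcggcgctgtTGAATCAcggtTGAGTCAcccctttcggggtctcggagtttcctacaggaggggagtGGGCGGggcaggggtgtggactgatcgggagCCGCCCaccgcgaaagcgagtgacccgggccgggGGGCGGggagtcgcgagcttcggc
Procr, chr2:155750967-155751216: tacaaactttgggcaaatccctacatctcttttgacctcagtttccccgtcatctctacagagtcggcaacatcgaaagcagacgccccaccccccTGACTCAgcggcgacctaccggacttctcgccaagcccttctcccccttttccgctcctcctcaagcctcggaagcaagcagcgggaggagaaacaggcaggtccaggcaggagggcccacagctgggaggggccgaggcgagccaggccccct
Plaur, chr7:24462233-24462482: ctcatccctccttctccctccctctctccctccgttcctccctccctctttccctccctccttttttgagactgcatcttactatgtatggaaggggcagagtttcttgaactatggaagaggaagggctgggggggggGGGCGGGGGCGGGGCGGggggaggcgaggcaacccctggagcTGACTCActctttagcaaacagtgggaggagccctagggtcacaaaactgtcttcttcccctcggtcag
Serpinb2, chr1:107511173-107511422: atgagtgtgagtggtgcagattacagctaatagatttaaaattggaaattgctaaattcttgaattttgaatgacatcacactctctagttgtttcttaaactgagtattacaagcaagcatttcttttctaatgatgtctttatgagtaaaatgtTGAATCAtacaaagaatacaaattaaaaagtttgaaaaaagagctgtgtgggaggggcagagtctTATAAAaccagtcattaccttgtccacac

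The promoter table held 6 of the 8 genes, F3, F10, Procr, Tfpi, Plaur and Serpinb2. An AP-1 match was present in 4 of the 6, against 6.75% of all 32851 promoter windows of that length. F3 held 2 of them, 146 and 135 bases before the start, and the others lay 154 bases (Procr), 69 bases (Plaur) and 94 bases (Serpinb2) before it. A TATA match was present in 2 of the 6, against 12.4% of all windows. It lay 29 bases before the start in Serpinb2, and 127 bases before it on the opposite strand in Tfpi. Serpinb2 also has a second annotated start, whose window is not shown above. The same AP-1 match lies 181 bases before that start and the TATA match 116 bases before it. The second window of Tfpi held no TATA match. F3, Plaur and Tfpi held Sp1 boxes, as did 32.7% of windows, and the 3 boxes of Plaur adjoin or overlap one another. The NF-kB consensus (GGGRNWYYCC) and the CRE motif (TGACGTCA) had 0 matches in these windows, against 3.9% and 1.55% of all windows. In the consensus R is A or G, W is A or T, Y is C or T and N is any base. Sites that depart from these letters were not searched, so the windows may still hold other NF-kB sites. F10 had no match to any of the 5 motifs. A gene counted if any of its windows matched, and the 6 genes had 8 windows, while the shares count single windows. Genes and motifs were chosen with earlier results of these data known, so these contrasts are not tests. A match describes letters in the window and does not show binding.

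Estimated depth was 17.2 to 23.4 M (10 to the power 6) fragments per library, and 1 fragment on 1 kb of transcript was worth 0.0327 to 0.0608 FPKM. The targeted gene Sema6d measured 0.592 FPKM in the library labelled Sema6D-/- with LPS and 0.219 in WT with LPS, and 0.563 in that labelled Sema6D-/- without LPS against 0.304 in WT. It was thus not lower where the labels name the deletion, so genotype below means the label. Xist was at 0.0306 and 0.0333 FPKM in the libraries labelled Sema6D-/- and at 21.4 and 22.3 in WT, while the Y-linked Ddx3y was at 16.6 and 13.2 against at most 0.00729 in WT. Sex therefore cannot be told apart from genotype. All 8 macrophage markers were above 1 FPKM in every library. Of 8 neutrophil and precursor markers 7 were above 1 FPKM in every library, and their summed level was 360 (labelled Sema6D-/- with LPS), 1272 (WT with LPS), 234 (labelled Sema6D-/- without LPS) and 828 FPKM (WT without LPS). Of 8 endothelial markers 3 reached 1 FPKM in any library, with sums of 54.1, 21.2, 17.1 and 9.92 FPKM in the same order, mostly from Kdr. The endothelial markers Tek, Emcn and Cldn5 were at most 0.0265 FPKM, and Cldn5 was listed at 0 in all 4. Lymphocyte, mast cell and hepatocyte markers stayed below 1 FPKM, 1 of 8 stromal markers passed it (Pdgfrb), and megakaryocyte and platelet markers summed to 84.4 to 114 FPKM. In bulk RNA, fewer cells of a type and less RNA per cell cannot be told apart.

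With LPS, tissue factor, factor X, the protein C receptor, the urokinase receptor and Serpinb2 were at least 2-fold higher in both genotypes. Urokinase was at least 2-fold lower in WT (-1.05) but not under the Sema6D-/- label (-0.67). Thrombomodulin (-0.78 under the Sema6D-/- label and -0.98 in WT) and Tfpi (0.36 and 0.12) did not pass 2-fold in either genotype. Ratios called at 2-fold are log2((FPKM + 1)/(FPKM + 1)), which pulls low genes towards 0. A ratio given with an interval has no added constant, and its 95% interval comes from estimated fragments.

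F3 measured 9.16 FPKM (252 fragments) in the library labelled Sema6D-/- with LPS, 3.64 (122 fragments) in WT with LPS, 0.240 (9 fragments) in that labelled Sema6D-/- without LPS and 0.135 (7 fragments) in WT without LPS. Tissue factor RNA was thus close to undetected without LPS and clearly present with it. The LPS ratio was 38.2-fold in the libraries labelled Sema6D-/- (log2 5.26, interval 4.31 to 6.40) and 26.9-fold in WT (log2 4.75, interval 3.66 to 6.09). With LPS the library labelled Sema6D-/- held 2.52 times the WT level (log2 1.33, interval 1.02 to 1.66). Without LPS that ratio had an interval of -0.77 to 2.49, and a difference could not be detected with so few fragments.

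F10, which encodes the protease that tissue factor activates and is made mainly in liver, measured 113.9 FPKM in the library labelled Sema6D-/- with LPS, 40.3 in WT with LPS, 21.4 in that labelled Sema6D-/- without LPS and 9.59 in WT without LPS. All 4 libraries were separated by more than counting error. LPS ratios were 5.33-fold in the libraries labelled Sema6D-/- (log2 2.41, interval 2.30 to 2.53) and 4.20-fold in WT (log2 2.07, interval 1.92 to 2.22). The level was higher under the Sema6D-/- label in both states, 2.83-fold with LPS (log2 1.50, interval 1.41 to 1.59) and 2.23-fold without (log2 1.16, interval 0.99 to 1.32). Of 6 hepatocyte markers 0 reached 1 FPKM, and Alb and Ttr were listed at 0 in all 4 libraries. Of the 2 RefSeq variants of F10, the shorter (1903 bases) carried 86.7% of the level in the library labelled Sema6D-/- with LPS and 98.3% in WT with LPS. It carried 100.0% and 99.8% in the libraries labelled Sema6D-/- and WT without LPS. The longer variant (2503 bases) was at 15.2 FPKM in the library labelled Sema6D-/- with LPS, 0.702 in WT with LPS, 0.00356 in that labelled Sema6D-/- without LPS and 0.0238 in WT without LPS. How reads were assigned to variants was not given in the sources used here.

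**Figure D1:**
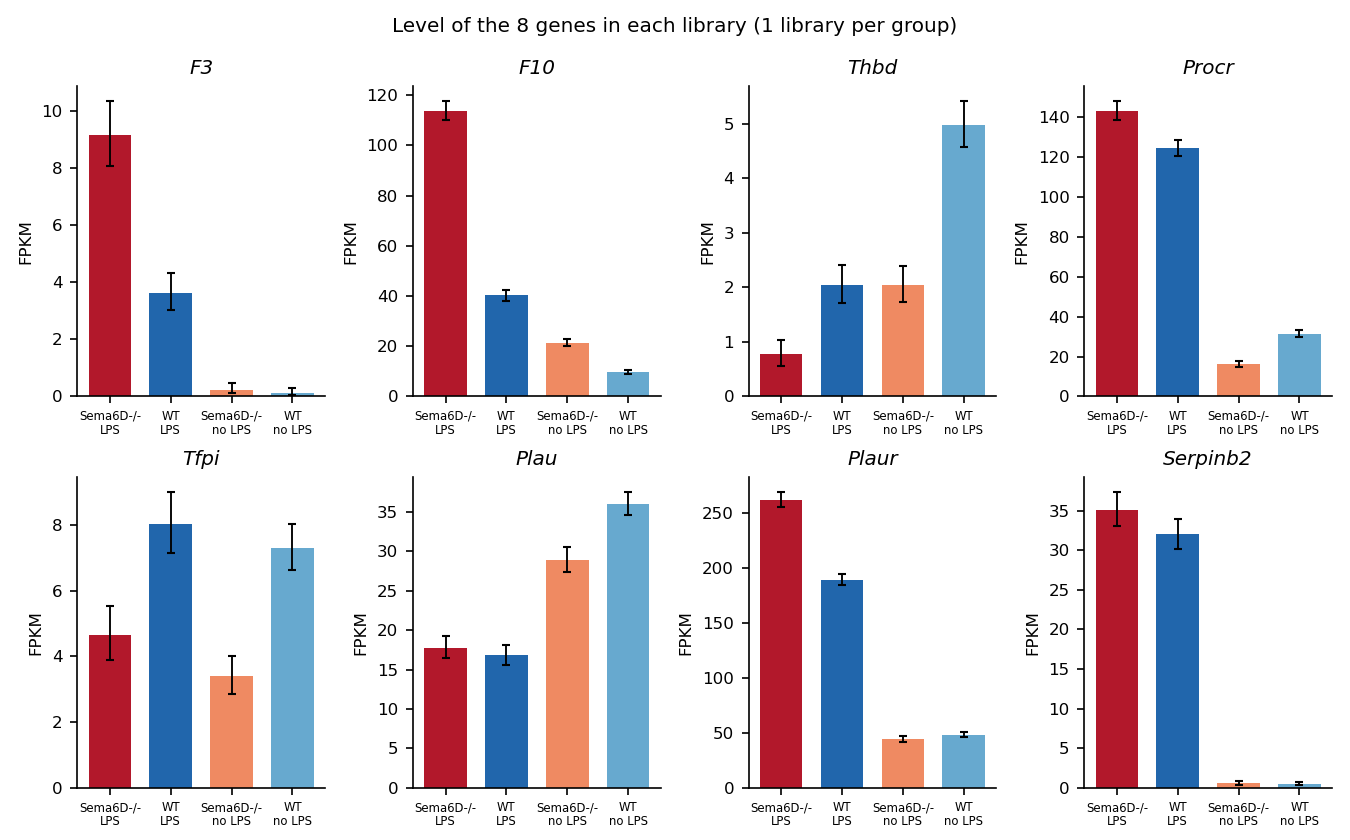
FPKM of each gene (vertical axes, linear from 0) in the 4 libraries, with 95% exact Poisson intervals from estimated fragments as error bars. F3, F10, Procr, Plaur and Serpinb2 stand higher with LPS, Thbd and Plau stand lower with LPS within each genotype, and Tfpi and Thbd are lower under the Sema6D-/- label in both states.

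Thbd, the thrombin receptor on the anticoagulant side, measured 0.769 FPKM (45 fragments) in the library labelled Sema6D-/- with LPS, 2.04 (144) in WT with LPS, 2.04 (160) in that labelled Sema6D-/- without LPS and 4.98 (537) in WT without LPS. It was highest in WT without LPS and lowest with LPS under the Sema6D-/- label, and the other two libraries did not differ beyond counting error. LPS ratios were -1.41 on the log2 scale (interval -1.92 to -0.92) in the libraries labelled Sema6D-/- and -1.29 (interval -1.56 to -1.02) in WT. The genotype ratios were close to these in size, -1.41 with LPS (interval -1.92 to -0.91) and -1.29 without (interval -1.55 to -1.03). With the added 1 all 4 ratios came out between -0.98 and -0.78, below the 2-fold rule.

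Procr, which presents protein C for activation, was higher with LPS. Its level was 143.4 FPKM in the library labelled Sema6D-/- with LPS, 124.7 in WT with LPS, 16.2 in that labelled Sema6D-/- without LPS and 31.5 in WT without LPS. Both libraries with LPS stood above both without. The LPS ratio was 8.86-fold (log2 3.15, interval 3.01 to 3.29) under the Sema6D-/- label and 3.96-fold (log2 1.99, interval 1.90 to 2.08) in WT. With LPS the genotypes were close (log2 0.20, interval 0.13 to 0.27), and without LPS the library labelled Sema6D-/- was lower (log2 -0.96, interval -1.11 to -0.81). The larger LPS ratio under that label therefore came with a lower level without LPS.

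The ratio of Procr to Thbd within a library, which scaling between libraries leaves as it is, was 186.3 in the library labelled Sema6D-/- with LPS and 61.1 in WT with LPS. Without LPS it was 7.93 under the Sema6D-/- label and 6.32 in WT.

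Tfpi, the inhibitor of the tissue factor complex, measured 4.65 FPKM in the library labelled Sema6D-/- with LPS, 8.03 in WT with LPS, 3.39 in that labelled Sema6D-/- without LPS and 7.30 in WT without LPS. It followed genotype more than LPS. Its genotype ratio was -0.79 (log2, interval -1.10 to -0.48) with LPS and -1.10 (interval -1.39 to -0.83) without. The LPS ratio was 0.45 (interval 0.10 to 0.81) under the Sema6D-/- label and 0.14 (interval -0.08 to 0.35) in WT, so no difference was detectable in WT. With the added 1, rescaling to a common total turned both LPS ratios negative, to -0.24 and -0.35. The shorter main variant (1492 bases) carried 80.8% (labelled Sema6D-/-) and 72.6% (WT) of the level with LPS, and 72.1% and 68.7% without.

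F3 stood at 1.97 times the level of Tfpi in the library labelled Sema6D-/- with LPS and at 0.453 times in WT with LPS. Without LPS the ratio of F3 to Tfpi was 0.0707 under the Sema6D-/- label and 0.0185 in WT. Tissue factor RNA exceeded that of its inhibitor in 1 of the 4 libraries.

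Plau, encoding urokinase, was lower with LPS, at 17.8 FPKM in the library labelled Sema6D-/- with LPS, 16.8 in WT with LPS, 28.9 in that labelled Sema6D-/- without LPS and 36.0 in WT without LPS. The 2 libraries with LPS did not differ beyond counting error (log2 0.08, interval -0.08 to 0.24). The LPS ratio was -0.70 (interval -0.84 to -0.57) under the Sema6D-/- label and -1.10 (interval -1.22 to -0.98) in WT.

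Plaur, the urokinase receptor, was the most abundant of the 8 genes in every library. It measured 262.0 FPKM in the library labelled Sema6D-/- with LPS, 189.4 in WT with LPS, 44.5 in that labelled Sema6D-/- without LPS and 48.6 in WT without LPS. In the library labelled Sema6D-/- with LPS it exceeded 98.5% of all genes. LPS ratios were 5.89-fold (log2 2.56, interval 2.47 to 2.65) under the Sema6D-/- label and 3.90-fold (log2 1.96, interval 1.89 to 2.04) in WT.

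Serpinb2 had the largest LPS ratio of the 8 genes, with a counting interval that overlapped that of F3 in both genotypes. It measured 35.1 FPKM (1037 fragments) in the library labelled Sema6D-/- with LPS, 32.02 (1155) in WT with LPS, 0.599 (24) in that labelled Sema6D-/- without LPS and 0.470 (26) in WT without LPS. The LPS ratio was 58.6-fold (log2 5.87, interval 5.29 to 6.52) under the Sema6D-/- label and 68.1-fold (log2 6.09, interval 5.53 to 6.71) in WT. Genotype ratios were 0.13 (interval 0.01 to 0.25) with LPS and 0.35 (interval -0.52 to 1.21) without. With the added 1 the ratio with LPS turned to -0.09 after rescaling to a common total.

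The balance of the urokinase system within a library shifted with LPS. Plaur stood at 14.7 times the level of Plau in the library labelled Sema6D-/- with LPS and 11.3 times in WT with LPS, against 1.54 and 1.35 times in those without LPS. Serpinb2 stood at 1.97 and 1.90 times the level of Plau with LPS, and at 0.0207 and 0.0131 times without (labelled Sema6D-/- before WT each time). The inhibitor RNA exceeded the urokinase RNA in both libraries with LPS and in neither without.

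**Figure D2:**
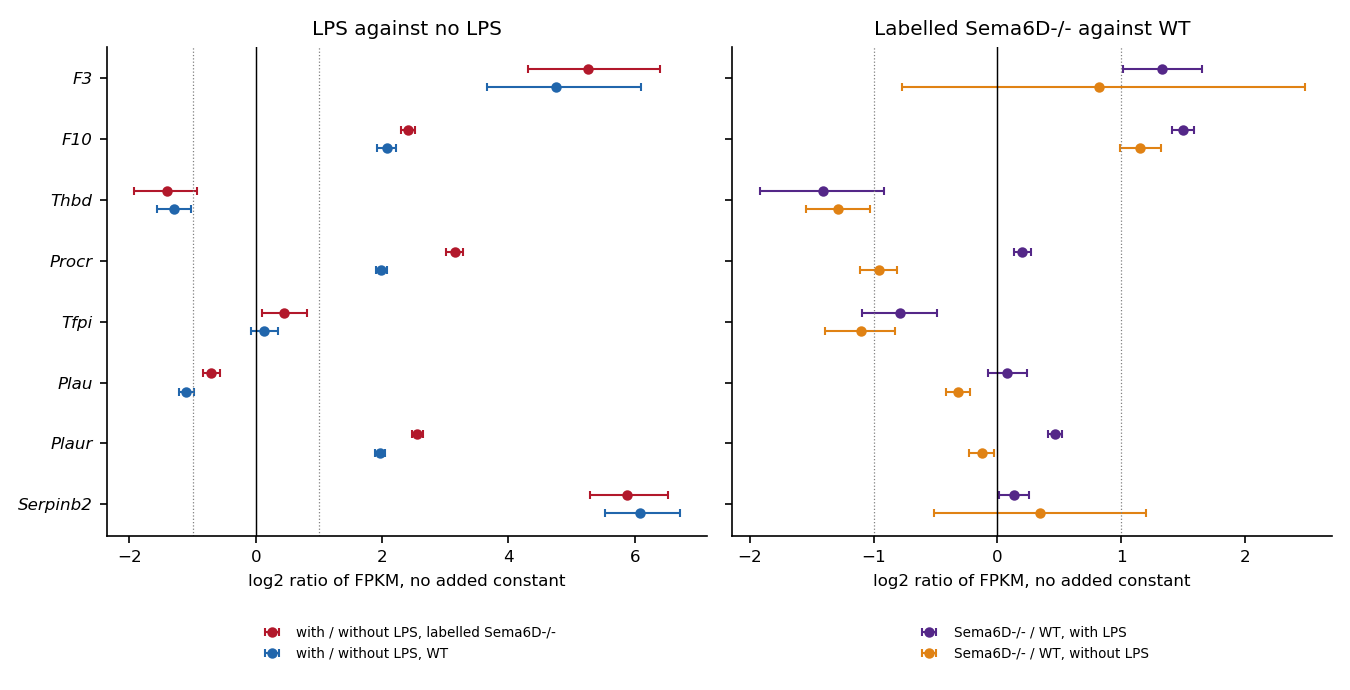
Log2 ratios of FPKM without an added constant (horizontal axes) for LPS against no LPS (left) and for the Sema6D-/- label against WT (right), with 95% counting intervals. Dotted lines mark 2-fold. F3, F10, Procr, Plaur and Serpinb2 lie right of the 2-fold line for LPS in both genotypes. Procr, Plaur and Plau change side between the states on the right, Plau with an interval of -0.08 to 0.24 with LPS.

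At the 2-fold rule with the added 1, 5 of 8 genes were higher with LPS in the libraries labelled Sema6D-/-, against 14% of 10398 measured genes, and 0 were lower, against 8.81%. Of all measured genes 22.8% passed in either direction there, against 15.6% in WT. In WT the same 5 genes, F3, F10, Procr, Plaur and Serpinb2, were higher, against 10.7% of 10375 genes. With 5 FPKM added in place of 1 the WT count was 4, since F3 came to 0.75. In WT 1 was lower (Plau, -1.05), against 4.85%. Without the added constant Thbd also passed in both genotypes. The median log2 ratio of the 8 genes was 2.45 under the Sema6D-/- label and 1.95 in WT, beside 0.01 and -0.00 for all measured genes. The 5 genes kept the higher call after each library was rescaled to a common total, which moved the median LPS ratio of 6110 well-measured genes to -0.56 (labelled Sema6D-/-) and -0.39 (WT), against 0.15 and 0.11 on the deposited scale. In rank, Serpinb2 was number 59 of 10398 genes under the Sema6D-/- label and number 64 of 10375 in WT.

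**Figure D3:**
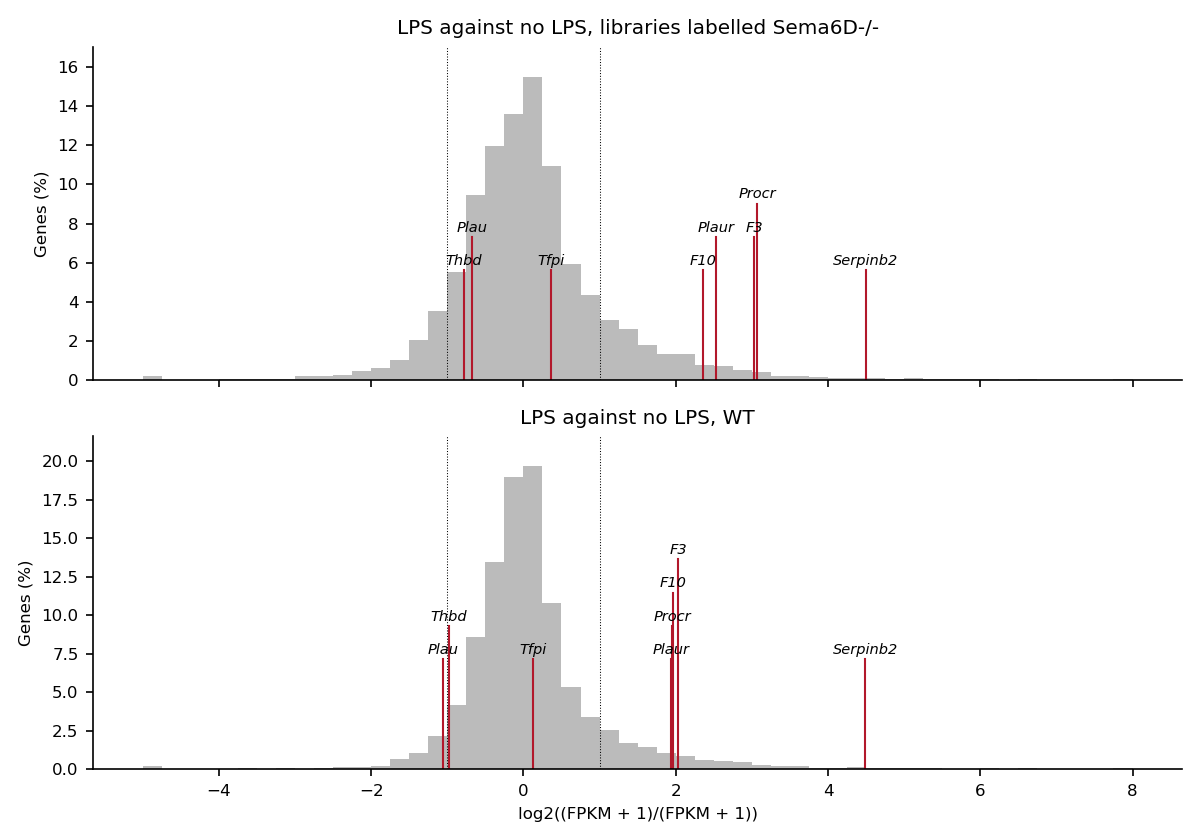
Share of measured genes (vertical axes, %) by log2((FPKM + 1)/(FPKM + 1)) for LPS against no LPS in bins of 0.25, in the libraries labelled Sema6D-/- (above) and in WT (below), with the 8 genes as red lines. The lowest bin holds all values below it, and dotted lines mark 2-fold. On this scale the genes lie in 3 places. Serpinb2 is at 4.50 and 4.49, F3, F10, Procr and Plaur are between 1.94 and 3.07, and Tfpi, Plau and Thbd are near or below 0. The place of F3 depends on the added 1, and without it F3 is at 5.26 (labelled Sema6D-/-) and 4.75 (WT).

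Between genotypes few of the 8 genes passed the 2-fold rule. With LPS, 2 of 8 were higher under the Sema6D-/- label (F10, 1.48, and F3, 1.13), against 3.09% of 10078 genes, and 0 were lower, against 3.18% (6.26% either way). Without LPS, 6 of 8 passed the filter of 1 FPKM, 1 of them was higher (F10, 1.08), against 2.51% of 10322 genes, and 0 were lower, against 2.19% (4.7% either way). Thbd (-0.97), Procr (-0.92) and Tfpi (-0.92) were just short of the rule in that comparison. Without the added constant Thbd and Tfpi passed and Procr did not. With LPS the median over 8 genes was 0.16, and -0.06 after rescaling to a common total. Without LPS it was -0.61 over the 6 genes that passed the filter and -0.22 over all 8 with no filter. The median of all measured genes was 0.04 in each state. Rescaling to a common total left 1 gene higher with LPS, F10 at 1.25, and brought F3 to 0.91.

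Neutrophil and precursor markers were also lower under the Sema6D-/- label, with 6 of 8 at least 2-fold lower with LPS and 5 of 8 without. Their part in the lower Thbd and Tfpi was not tested. Of 8 macrophage markers 2 were at least 2-fold higher under that label with LPS (Mertk, 1.97, and Cd14, 1.05) and 1 was lower (Itgam, -1.02). Without LPS 1 was higher (Cd14, 1.13) and 0 were lower. What these macrophage marker differences mean for the 8 genes was not tested. Of 8 endothelial markers 2 were at least 2-fold higher under that label with LPS (Kdr and Vwf), 1 without (Vwf), and 0 were lower in either state. Kdr was at 46.4 against 15.6 FPKM with LPS and 10.6 against 6.36 without, and Vwf at 5.19 against 1.86 and 5.67 against 2.18. Cdh5 did not pass, at 2.08 against 3.02 with LPS, and was below 1 FPKM without. For LPS against no LPS 2 of the 8 (Kdr and Cdh5) were higher in each genotype. Their part in the levels of Thbd, Procr and Tfpi was not tested.

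The difference of the LPS responses (Sema6D-/- label minus WT, with the added 1) was at least 2-fold up for 2 of 8 genes, Procr (1.12) and F3 (1.01), against 1.83% of 10680 genes, and down for 0, against 1.25% (3.08% either way). For F3 it was 0.51 without the added constant (interval -0.95 to 1.97) and 0.75 with the constant after rescaling. For Procr it was 1.16 (interval 1.00 to 1.32) without the constant and 0.90 with it after rescaling to a common total. Plaur had 0.60 (interval 0.48 to 0.71), Plau 0.39 (interval 0.21 to 0.58) and F10 0.34 (interval 0.16 to 0.53) without the constant. With it, after rescaling, the differences fell to 0.37 (Plaur), 0.17 (Plau) and 0.16 (F10), so their size depends on the scaling. The intervals of Thbd (-0.67 to 0.42), Tfpi (-0.09 to 0.72) and Serpinb2 (-1.03 to 0.59) included 0.

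Within each library Plaur ranked first of the 8. With LPS the order then ran Procr, F10, Serpinb2 and Plau in both genotypes. Without LPS it ran Plau, F10 and Procr under the Sema6D-/- label and Plau, Procr and F10 in WT, and Serpinb2 and F3 came last in both. Thbd came last in both libraries with LPS.

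Profiles over the 4 libraries were compared with those of other protein-coding genes at 5 FPKM or more, by the root mean square difference of log2(FPKM + 1) centred on each gene's mean. The nearest of 7803 genes to F3 were Usp12 (0.0767), Rel (0.0793) and Gem (0.0858). F10 was nearest to Kcna3 (0.0895), H2-Q7 (0.106) and Pstpip2 (0.154), and Thbd to Polh (0.0673), Cd28 (0.0983) and Nr4a1 (0.105). Nearest to Procr were Zyx (0.174), Cd38 (0.182) and Plekha4 (0.185), and nearest to Tfpi were Pkmyt1 (0.0558), Cryzl2 (0.0577) and Ctsl (0.0645). Plau was nearest to Slc30a5 (0.0526), Tcf12 (0.0633) and Pcp4l1 (0.0691), and Plaur to Rap2c (0.0537), Ccdc25 (0.0560) and Pfkfb3 (0.0808). Serpinb2 was nearest to Lipg (0.0939), Mxd1 (0.159) and Cd274 (0.174). Among the 8 genes themselves F3 and Plaur were the closest pair on this scale (0.292), followed by Procr and Plaur (0.326). F3 and Serpinb2 lay below 1 FPKM without LPS, where the added 1 shrinks ratios, so their distances depend on it. Without it the LPS ratios of F3 were 5.26 (Sema6D-/- label) and 4.75 (WT), against 2.56 and 1.96 for Plaur.

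The wider pathway held 63 further genes in 7 lists, of which 30 reached 1 FPKM in any library. Of all measured genes, 14% (Sema6D-/- label) and 10.7% (WT) were at least 2-fold higher with LPS, and 8.81% and 4.85% lower. Under the Sema6D-/- label 3.09% were higher and 3.18% lower than in WT with LPS, and 2.51% and 2.19% without. These shares stand beside every list count below, and with few measured genes a count of 0 or 1 is no result about a list. Of 15 coagulation factors and cofactors 4 were measured. F13a1, the fibrin cross-linking factor XIII subunit, was at 100.9 FPKM in the library labelled Sema6D-/- with LPS and 78.8 in WT with LPS, and at 77.1 and 63.2 without LPS. F7, the partner of tissue factor, was at 6.08, 4.34, 2.73 and 2.43 FPKM in that order of libraries, and F5, the cofactor of factor Xa, was at most 1.04. No gene of this list passed 2-fold with LPS, and 1 of 4 (with LPS) and 1 of 3 (without) was higher under the Sema6D-/- label. That gene was Vwf, the carrier of factor VIII, at 5.19 FPKM in the library labelled Sema6D-/- with LPS and 1.86 in WT with LPS, and at 5.67 and 2.18 without LPS. The fibrinogen genes, F11 and F12 were listed at 0 in all 4 libraries, as was the protein C gene Proc.

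Of 10 further anticoagulant genes 4 were measured and 0 passed 2-fold in any comparison. Pros1, the cofactor of activated protein C, was at 8.17 FPKM in the library labelled Sema6D-/- with LPS against 15.9 in WT with LPS, and at 6.57 against 11.6 without LPS. Gas6, its relative and a ligand of TAM receptors, was at 50.9 against 80.9 and at 50.3 against 89.3 FPKM in the same pairs. All 4 protease-activated receptor genes, among them the thrombin receptor F2r (at most 0.160), were below 1 FPKM. In the list of the vitamin K cycle and secretion, 7 of 7 were measured. Mcfd2 and Lman1, which together carry factors V and VIII out of the endoplasmic reticulum, had genotype ratios of -1.05 and -1.01 with LPS and -1.20 and -0.97 without. Furin, a protease that processes secreted precursors, had LPS ratios of 1.05 under the Sema6D-/- label and 0.65 in WT.

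Plat, tissue plasminogen activator, was at 1.25 FPKM (48 fragments) in the library labelled Sema6D-/- with LPS, 0.0421 (2 fragments) in WT with LPS and 0.0759 (4 fragments) in that labelled Sema6D-/- without LPS, and was listed at 0 in WT without LPS. Thbs1, an adhesive glycoprotein that binds plasminogen activators, was at 26.5 against 89.1 FPKM with LPS and 8.20 against 62.9 without (Sema6D-/- label against WT). Of the 8 genes analysed in the list of plasminogen activator and plasmin inhibitors 3 were measured. For LPS against no LPS 1 was higher under the Sema6D-/- label (Thbs1, 1.58) and 0 in WT. Between genotypes 0 were higher under the Sema6D-/- label and 2 were lower in each state. These were Thbs1 (-1.71 with LPS and -2.80 without) and Serpinb6a, a clade B serpin (-1.22 and -1.41). Serpine2 stayed below 1 FPKM.

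Of 10 genes for plasminogen, its activators and receptors 7 were measured, and in the libraries with LPS 1 was higher under the Sema6D-/- label than in WT (Plat, 1.11) and 1 lower (Itgam, an integrin subunit that partners the urokinase receptor, -1.02). The plasminogen-binding pair Anxa2 and S100a10 had LPS ratios of 0.58 and 0.71 under the Sema6D-/- label and 0.27 and 0.67 in WT, and S100a10 was at 438.0 FPKM in the library labelled Sema6D-/- with LPS and 448.2 in WT with LPS. Plasminogen itself (Plg), made in liver, was listed at 0 in all 4. Of 9 other clade B serpins 5 were measured in any library. For LPS against no LPS 0 of 2 measured passed 2-fold under the Sema6D-/- label and 1 of 5 did in WT (Serpinb9, an inhibitor of granzyme B, 1.28). Between genotypes Serpinb6b was lower under the Sema6D-/- label in both states (-1.59 with LPS and -1.55 without), and Serpinb9b was lower with LPS (-1.07).

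**Figure D4:**
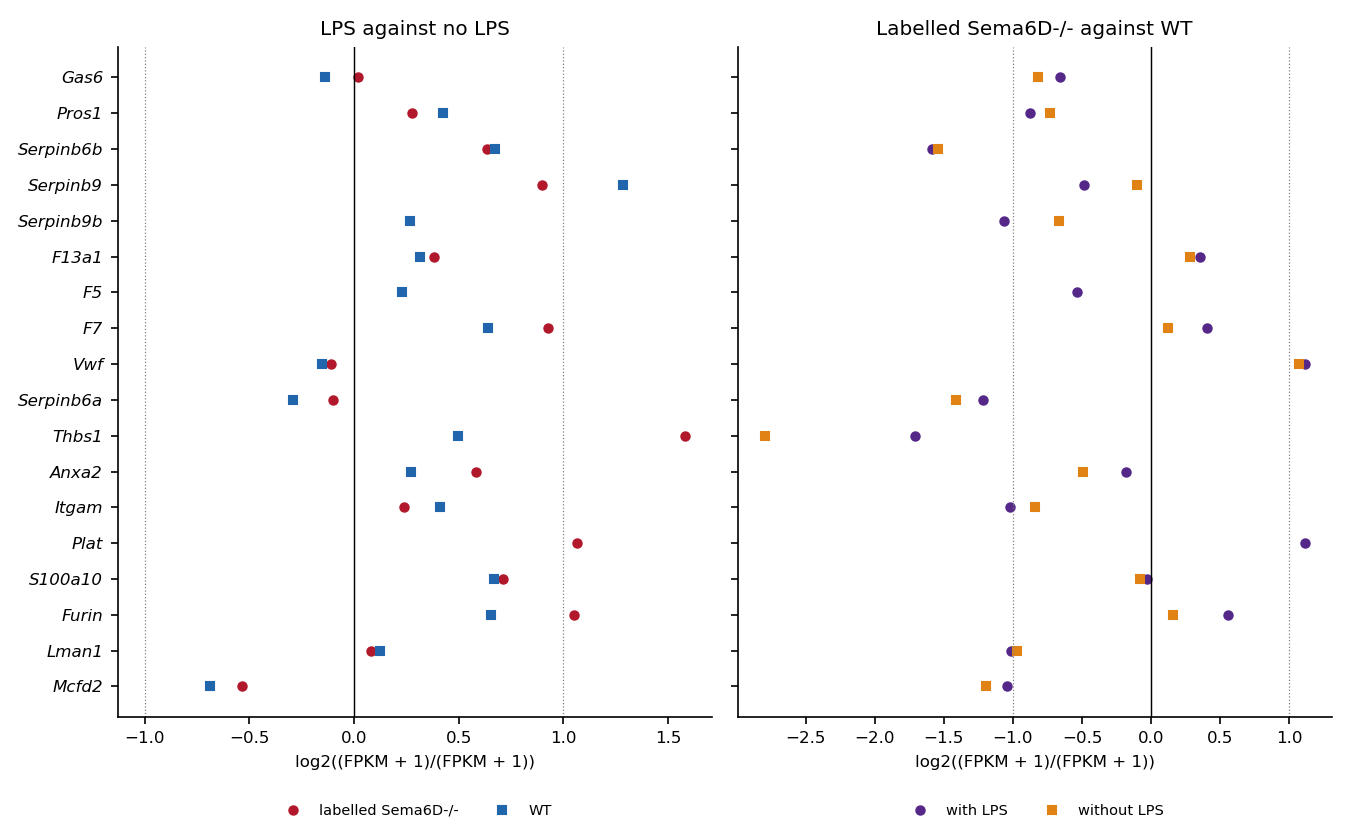
Log2((FPKM + 1)/(FPKM + 1)) (horizontal axes) of the named pathway genes that passed the filter, for LPS against no LPS (left, circles for the Sema6D-/- label and squares for WT) and for the Sema6D-/- label against WT (right, circles with LPS and squares without). Dotted lines mark 2-fold, and a missing symbol means that the gene was below 1 FPKM in both libraries. Thbs1 lies farthest to the left on the right-hand side, at -1.71 with LPS and -2.80 without.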

How the data were processed

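Messenger RNA libraries were made with a stranded kit, per the labels' protocols. The authors deposited FPKM values, 1 per RefSeq transcript and library, in tables of 34487 rows. The submitters' processing notes list Cuffnorm 2.2.1, SAMtools 0.1.19, TopHat2 2.0.13 and Bowtie2 2.2.3, and the build mm9. Options, annotation version and scaling between libraries are not given in the sources used here. Transcripts were named from RefSeq on GRCm38.p6 (34163 rows) or GENCODE vM21 (187 rows), 137 unnamed rows were left out, and rows were summed per gene. Groups followed the library titles.

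Genes below 1 FPKM in both libraries of a comparison were left out of it, and the size rule was 2-fold on log2(FPKM + 1). Fragments were FPKM times transcript length less a fragment of 200 bases, divided by the step that low values share. Of low values, 71.1 to 72.9% came out whole within 0.1, against 20% by chance for a step fixed in advance. The step was chosen for a high share of whole values, so that share is no independent check. Intervals were exact conditional binomial for ratios and normal for differences of ratios. The step and ratios were tested on simulated data. Named pathway genes were the 11 past 2-fold in any pairwise comparison plus 11 fixed names, 20 in all. One gene of the lists is not reported here. Members, lists and motifs were chosen with earlier results of these data known. Python 3.11.15, pandas 2.3.3 and scipy 1.17.1 were used.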

Additional observations from a re-analysis of the deposited data

Results flagged for a closer look

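Procr had genotype ratios of opposite sign in the 2 states beyond counting error, 0.20 with LPS and -0.96 without on the log2 scale, a difference of 1.16. With the added 1 its ratio with LPS became -0.03 after rescaling to a common total. Plaur had 0.47 with LPS and -0.13 without, a difference of 0.60. With the added 1 that difference was 0.37 after rescaling to a common total. Neither difference was tested, since each group was 1 library.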

How the results depend on the processing

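No paired analysis was possible because each group held 1 library. Over 9 alternatives, 335 member ratios were recomputed. Of these, 60 shifted by at least the distance from the middle of their counting interval to its end, and 0 of those past 2-fold changed sign. Whether a ratio left its interval was not checked. Dropping the filter (38 ratios), a 5 FPKM filter (31) and RefSeq NM_ rows only (38) could not change a kept member ratio. Rescaling shifted 20 of 38. Members at least 2-fold lower with LPS in WT, 1 as reported, were 2 with 0.1 FPKM added, with no constant, after rescaling to equal totals and with ratios centred on their median, and 0 with 5 FPKM added. Members higher in WT were 4 with 5 FPKM added or as the filter, F3 being lost, against 5. Under the Sema6D-/- label the count of lower members, 0 as reported, was 1 with 0.1 FPKM or no constant and 2 after rescaling. Without LPS, members lower under the Sema6D-/- label were 2 with 0.1 FPKM or no constant and 1 after rescaling, against 0, and members higher were 0 with 5 FPKM, against 1. With LPS, members lower were 1 with 0.1 FPKM or no constant, against 0, and members higher were 1 with 5 FPKM or after rescaling, against 2. Members with a larger LPS response under that label, 2 as reported, were 1 with 0.1 FPKM, no constant or centring, and 0 with 5 FPKM or rescaling. Pathway genes past 2-fold in any pairwise comparison changed to 3 coagulation factors with 0.1 FPKM or no constant and 0 with 5 FPKM (1 as reported), to 1 anticoagulant gene after rescaling (0 as reported), to 1 plasminogen activator or receptor gene with 5 FPKM added or as the filter (2 as reported), and to 5 clade B serpins with no constant and 0 with 5 FPKM (3 as reported). Counts over all genes moved with the constant too, given here for 0.1 FPKM, no constant and 5 FPKM. Lower with LPS in WT were 892, 917 and 188, against 503. Under the Sema6D-/- label they were 1443, 1478 and 293, against 916. Lower under that label than in WT were 359, 331 and 104 without LPS, against 226. With LPS they were 492, 488 and 126, against 320. Larger LPS responses under that label numbered 294, 245 and 116, against 195. Over all genes, rescaling gave 745 higher and 3008 lower with LPS under the Sema6D-/- label, against 1453 and 916. In WT it gave 713 and 1502, against 1114 and 503. Between genotypes with LPS it gave 188 higher, against 311. Total FPKM was 628278 (labelled Sema6D-/-) and 534692 (WT) with LPS, against 371243 and 370066 without. Rescaling to a common total therefore lowers LPS ratios by construction. Why the totals differ was not tested. F3 and Serpinb2 without LPS rested on 7 to 26 fragments, which limits their ratios.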
